A study of Mus musculus with 18 samples.

Results

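Dendritic cells grown from mouse bone marrow were compared after 24 h and after 12 h of lipopolysaccharide (LPS), the bacterial cell wall component that activates them through the receptor TLR4. The comparison took the 3 arrays of LPS at 24 h and the 3 of LPS at 12 h, which are 6 of the 18 arrays of the series, and paired them by condition. The conditions were wild type cells of strain C57BL/6, the same cells given LPS together with 2 mM EGTA, which binds calcium outside the cell, and cells of Cd14-/- C57BL/6 mice, which lack the LPS co-receptor CD14. The mice were 6-8 weeks old. All cultures had been grown for a week or more in medium with GM-CSF released by transduced B16 tumour cells, and were used once the great majority of cells carried CD11c. LPS was given at 1 µg/ml to wild type cells, with EGTA or without, per the labels, which name no dose for CD14-deficient cells.

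Each condition was measured on 1 array at each time, so the 3 conditions served as the pairs. No label says that the arrays came from separate cultures or animals, so the p-values speak for the scatter among these arrays alone, and that scatter may be technical. The time with LPS and the time in culture since plating rose together and cannot be told apart. An exact test over 3 pairs cannot give a p below 0.25, so the tests are those of limma, fitted across all genes over the 15 LPS arrays with the condition as a block. RNA integrity numbers were 8.8 and 8.7 with EGTA at 12 and 24 h and between 9.7 and 9.9 on the other 4 arrays compared. Levels are quantile-normalised log2(intensity + 16), and changes are 24 h minus 12 h on that scale with their standard error. Where 3 levels or 3 changes follow each other they belong to wild type, EGTA and CD14-deficient cells, in that order.

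LPS makes dendritic cells release inflammatory cytokines through the transcription factor NF-kB, and through the adaptor TRIF it leads to interferon beta, which then drives a wave of interferon-stimulated genes. The cells mature during the same period, carrying antigen, costimulatory proteins and the homing receptor CCR7 toward lymph nodes. Feedback inhibitors of NF-kB and of cytokine signalling then limit the response, and activated dendritic cells are known to draw energy from glycolysis, whose genes respond to the hypoxia-inducible factor HIF-1.

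Promoters of 6 genes that changed are shown, a pair for each of 3 gene groups described below, because each pair holds a short motif that is frequent in its group. They are 300 bases around the transcription start, from RefSeq (GRCm38.p6), read 5′ to 3′ on the strand of the gene, and no genome build is stated for the arrays. The pair from the interferon list is that of the chemokine Cxcl10 (chr5:92348840-92349139, minus strand) and of the RNA sensor Ifih1 (chr2:62646206-62646505, minus strand), with the core of the interferon-stimulated response element, GAAANNGAA on either strand, in capitals.
Cxcl10: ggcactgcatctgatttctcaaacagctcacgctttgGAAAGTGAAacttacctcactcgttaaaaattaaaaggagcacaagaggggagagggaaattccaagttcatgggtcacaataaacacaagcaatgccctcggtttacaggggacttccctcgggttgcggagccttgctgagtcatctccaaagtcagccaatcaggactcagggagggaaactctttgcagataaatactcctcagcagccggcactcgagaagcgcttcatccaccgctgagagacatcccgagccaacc
Ifih1: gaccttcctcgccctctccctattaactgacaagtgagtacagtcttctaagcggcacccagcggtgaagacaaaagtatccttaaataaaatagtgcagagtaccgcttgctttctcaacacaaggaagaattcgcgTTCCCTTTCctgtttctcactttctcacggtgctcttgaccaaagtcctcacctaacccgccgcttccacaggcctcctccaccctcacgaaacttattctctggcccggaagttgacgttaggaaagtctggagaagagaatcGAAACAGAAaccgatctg
The pair from the mitosis list is that of the ubiquitin-conjugating enzyme Ube2c (chr2:164769679-164769978, plus strand) and of cyclin B2, Ccnb2 (chr9:70421505-70421804, minus strand), with the cell cycle homology region TTTGAA in capitals.
Ube2c: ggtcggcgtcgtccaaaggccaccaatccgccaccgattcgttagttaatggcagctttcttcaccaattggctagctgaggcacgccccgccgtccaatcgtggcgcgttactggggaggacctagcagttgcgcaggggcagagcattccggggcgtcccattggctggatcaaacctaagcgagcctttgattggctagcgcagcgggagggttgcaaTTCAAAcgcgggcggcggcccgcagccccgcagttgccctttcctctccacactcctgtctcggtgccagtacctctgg
Ccnb2: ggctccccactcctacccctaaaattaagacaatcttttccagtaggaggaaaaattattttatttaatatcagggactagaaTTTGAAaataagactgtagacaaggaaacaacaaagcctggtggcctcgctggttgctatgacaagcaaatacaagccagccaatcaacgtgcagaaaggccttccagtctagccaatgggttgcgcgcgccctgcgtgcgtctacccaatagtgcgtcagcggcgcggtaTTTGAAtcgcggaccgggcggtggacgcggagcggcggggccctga
The pair from the glycolysis and hypoxia list is that of the lactate exporter Slc16a3 (chr11:120948817-120949116, plus strand) and of the mitophagy receptor Bnip3 (chr7:138909457-138909756, minus strand), with ACGTG, the core of the hypoxia response element, in capitals.
Slc16a3: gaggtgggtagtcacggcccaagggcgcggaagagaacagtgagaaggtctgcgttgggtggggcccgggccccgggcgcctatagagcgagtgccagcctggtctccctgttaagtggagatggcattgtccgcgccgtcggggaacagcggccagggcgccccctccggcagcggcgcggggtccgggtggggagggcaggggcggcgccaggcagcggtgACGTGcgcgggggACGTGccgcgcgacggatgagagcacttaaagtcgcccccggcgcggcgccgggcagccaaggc
Bnip3: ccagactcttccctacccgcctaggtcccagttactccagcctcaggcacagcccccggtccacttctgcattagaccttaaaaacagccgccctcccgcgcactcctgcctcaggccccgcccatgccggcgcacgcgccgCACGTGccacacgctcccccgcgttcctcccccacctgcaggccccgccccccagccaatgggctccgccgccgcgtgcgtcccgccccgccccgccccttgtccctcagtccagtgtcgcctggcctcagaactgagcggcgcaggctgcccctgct
In Bnip3 the capitals read the same on both strands, so the 2 matches there overlap.

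The motifs were counted on both strands in the promoters of all tested genes, of which 6087 of 7392 matched an entry. The interferon core GAAANNGAA stood in 16 of 28 promoters of the interferon list (57.1%), against 7.39% of all promoters. TTTGAA stood in 16 of 21 promoters of the mitosis list (76.2%), against 11.5% of all, and CCAAT in 18 of 21 (85.7%), against 38.3%. CCAAT was as frequent in the cholesterol list, with 12 of 14 promoters (85.7%), and stood in 15 of 25 of the DNA replication list (60%). The E2F motif (TTTGGCGC or TTTCCCGC) stood in 7 of 25 promoters of the DNA replication list (28%), against 3.38% of all. In a pair of other lists the motif named after the pathway stood in few promoters. GGGANTTCC, the NF-kB motif, stood in 1 of 23 promoters of the NF-kB cytokine list (4.35%), against 2.48% of all, and the sterol motif TCACNCCAC in 1 of 14 of the cholesterol list (7.14%), against 0.969%. ACGTG, a motif added after the values were seen, stood in 16 of 24 promoters of the glycolysis and hypoxia list (66.7%), against 26.9% of all. Over all genes that changed, the shares of ACGTG lay near the background. Those of GAAANNGAA and GGGANTTCC lay above it for falls and below it for rises, which was not tested. They were not alone in this. For falls, rises and all genes the AP-1 motif TGANTCA had 7.1%, 4.66% and 5.29%, and TTTGAA 13.4%, 10.5% and 11.5%. The sterol motif had 1.78%, 0.69% and 0.969%, and the metal motif TGCGCNC 29.4%, 26.9% and 27.8%. The GAS (TTCNNNGAA), CRE (TGACGTCA), E2F and CCAAT motifs did not run this way. GAAANNGAA was in 9.66% of promoters of genes lower at 24 h and 6.21% of those higher, and ACGTG was in 26.2% and 25%. GGGANTTCC was in 4.54% and 1.21%, against 2.48% of all. Matches of different motifs may overlap, and a match is a description of the letters and not a site.

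Between 12 and 24 h, 695 of 7392 tested genes rose (9.40%) and 631 fell (8.54%), or 1326 in all (17.9%). The threshold was an adjusted p under 0.05 by limma. These shares are the background for the list counts below. The changes were mostly small, with 36 genes higher and 59 lower by 2-fold or more and a median change of 0.01 over all tested genes. Of the called genes, 693 of 695 and 630 of 631 had the same sign in all 3 conditions. All 3 arrays at 24 h lay above all 3 at 12 h for 924 tested genes (12.5%) and below them for 744 (10.1%), and 506 and 390 of these were also called. The balance of rises and falls depended on the scaling, with 435 higher and 786 lower after median centring and 165 higher and 620 lower without further scaling, where the median change was -0.04 and -0.09. No gene was called in the opposite direction under any alternative setting. The number of calls rested most on wild type cells, with 128 higher and 119 lower when the wild type condition, its 5 LPS arrays without EGTA, was left out. It was 365 and 311 without the wild type 12 h array, 386 and 341 without the EGTA 12 h array, 273 and 233 without the EGTA condition, and 417 and 514 without the CD14-deficient condition.

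**Figure D1:**
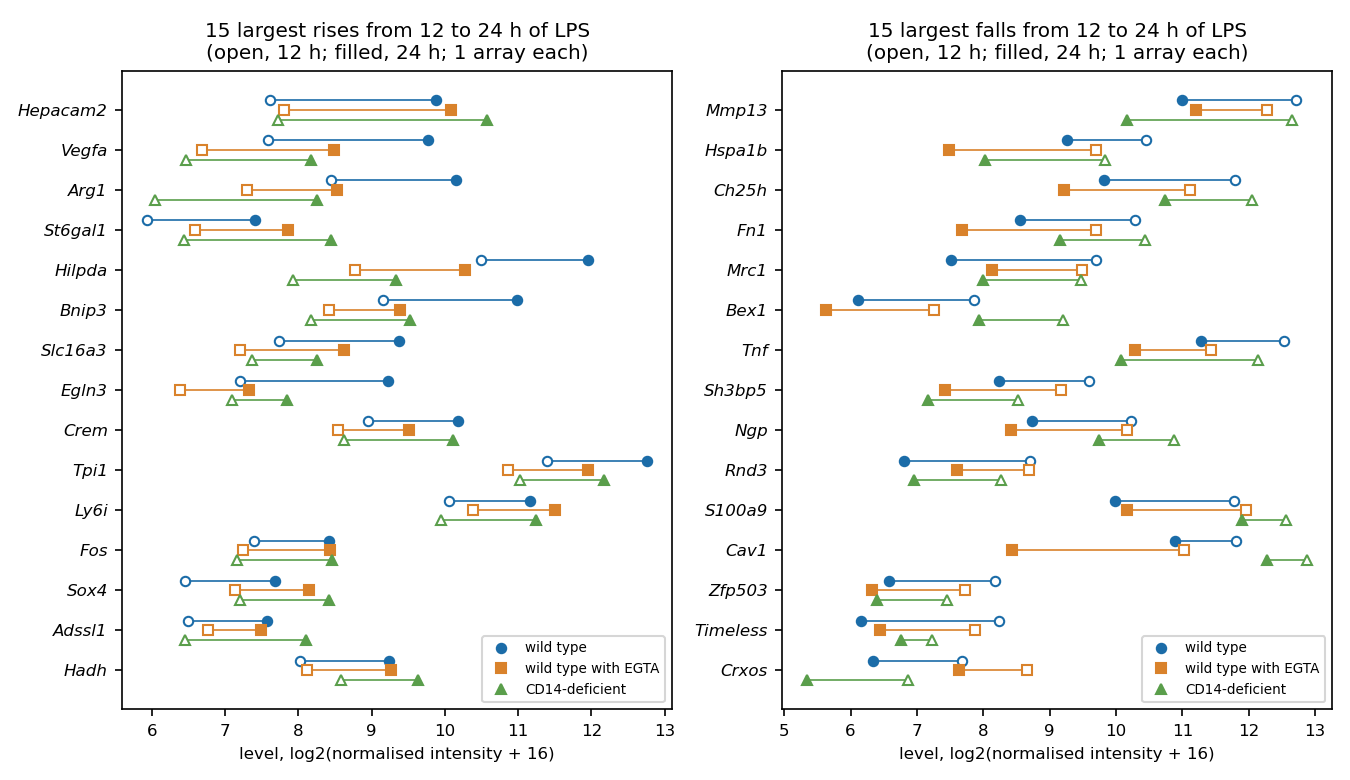
Levels of the 15 genes with the largest rises (left) and falls (right) from 12 h (open) to 24 h (filled) of LPS, as log2(normalised intensity + 16), 1 array a symbol, with 1 line for each condition. Each line runs the same way in all 3 conditions, and Hepacam2 (2.47) and Mmp13 (-1.76) have the largest changes.

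Most late changes ran against the early response measured on 9 other arrays, the mean of 4 and 6 h of LPS minus unstimulated cells. That early response called 1967 of the tested genes higher (26.6%) and 2547 lower (34.5%). Of the 695 late rises, 534 (76.8%) were early lower, which is 21.0% of all early lower genes, and 37 (5.32%) were early higher, which is 1.88% of those. Of the 631 late falls, 395 (62.6%) were early higher, which is 20.1% of all early higher genes, and 114 (18.1%) were early lower, which is 4.48% of those. The median early change was -0.56 for the late rises and 0.54 for the late falls, against -0.06 for all tested genes. Unstimulated cells were harvested 24 h after plating, so the early response also holds the time since plating. Of the 15 largest rises, Ly6i alone was early higher, at 2.95, while the other 14 had early changes between -3.16 and -1.18. Of the 15 largest falls, Fn1, Mrc1, Bex1, Ngp and S100a9 had early changes below 0, from -1.32 to -0.47, the same sign as their late change.

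**Figure D2:**
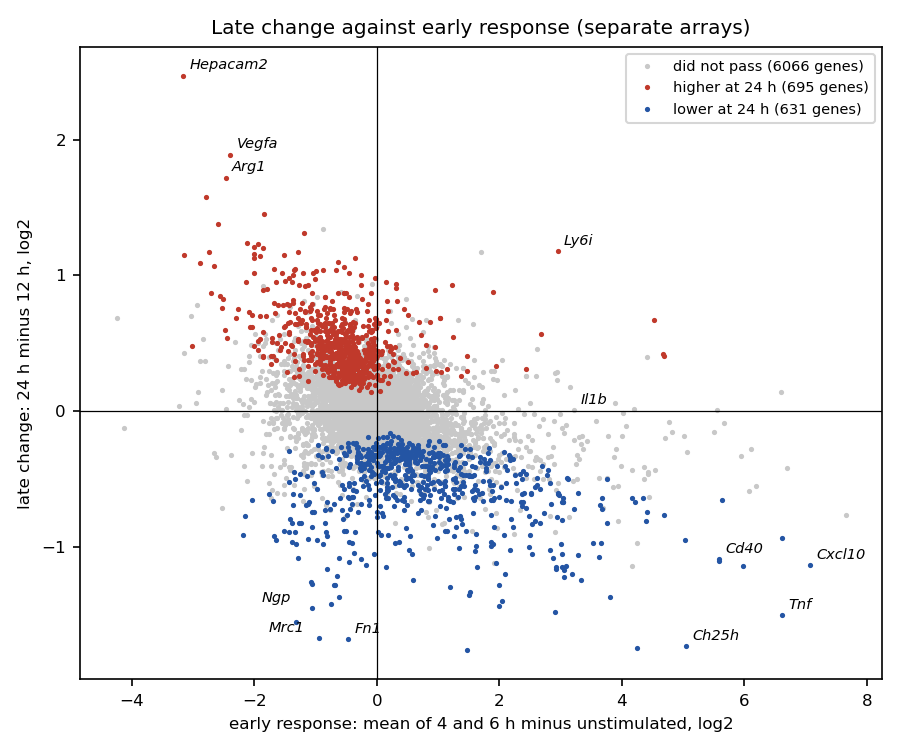
Late change (24 h minus 12 h, log2) against early response (mean of 4 and 6 h minus unstimulated, log2), 1 point for each of the 7392 tested genes, red where called higher and blue where called lower. Late rises lie mainly to the left of 0, where 76.8% were called early lower, and late falls mainly to the right, where 62.6% were called early higher.

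Genes of glycolysis and of the hypoxia response rose together. In the list of 25 tested genes 16 rose and 0 fell, with a median change of 0.47, or 0.71, 0.32 and 0.35 by condition, against 0.01 for all tested genes. Before that, 16 of the 25 had been early lower and 4 early higher. Relative to each gene's mean over the 18 arrays, the median level of the list was 0.51, 0.45 and 0.43 in unstimulated cells. At 24 h it was 0.48, -0.04 and 0.09, so no condition stood above its unstimulated array. The growth factor Vegfa, which draws new blood vessels, was at 7.59, 6.69 and 6.47 at 12 h and at 9.77, 8.49 and 8.18 at 24 h. The times did not overlap, and every condition rose. The change was 1.89 ± 0.25, or 3.71-fold (adjusted p = 5.8e-04, 3 of 3 conditions), after an early fall of 2.39. Slc16a3, which carries lactate out of the cell, was at 7.74, 7.21 and 7.37 at 12 h and at 9.37, 8.62 and 8.26 at 24 h, again with no overlap, and rose by 1.31 ± 0.20 (adjusted p = 0.00115). Bnip3, which marks mitochondria for removal, was at 9.16, 8.42 and 8.18 and then at 10.98, 9.39 and 9.53, and rose by 1.38 ± 0.25 (adjusted p = 0.00274). Its wild type array at 24 h stood well above the other conditions.

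Enzymes along glycolysis followed. The triose phosphate isomerase Tpi1 went from 11.39, 10.86 and 11.03 to 12.76, 11.96 and 12.17, a rise of 1.20 ± 0.13 (adjusted p = 2.1e-04) with no overlap between the times. The glucose transporter Slc2a1 (0.74), the phosphofructokinase Pfkl (0.75), the aldolase Aldoa (0.47), Pgk1 (0.39), Pgam1 (0.25), Gapdh (0.14), the pyruvate kinase Pkm (0.72) and the lactate dehydrogenase Ldha (0.32) also rose, as did Pdk1 (1.09), which holds pyruvate back from the mitochondria. So did Mif (0.53) and Higd1a (0.55). The lipid droplet protein gene Hilpda, also induced by hypoxia, was at 10.50, 8.78 and 7.93 and then at 11.95, 10.27 and 9.33. It rose in every condition by 1.45 ± 0.34 (adjusted p = 0.0110), but the times overlapped because its level differed between the conditions. The HIF prolyl hydroxylase Egln3 rose by 1.24 ± 0.37 (adjusted p = 0.0378), with changes from 7.20, 6.39 and 7.10 to 9.22, 7.33 and 7.84.

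Hif1a itself (-0.17), the hexokinases Hk1 (0.24) and Hk2 (0.00), Pfkp (-0.20), Pfkfb3 (-0.16), Ndrg1 (-0.14), Car9 (-0.14), P4ha1 (0.24) and Ero1a (0.62) did not pass the test. The number of list members that rose was 8 without further scaling and 8 without the condition block, 6 without the wild type condition, and 10 without the EGTA condition, the CD14-deficient condition or the EGTA 12 h array. Slc16a3 lost its call without the wild type condition, and Hilpda lost it without the EGTA condition, the wild type 24 h array or the CD14-deficient 12 h array. The Egln3 call was lost under 7 of the 9 settings that left arrays out and kept only without the EGTA 24 h or the CD14-deficient 24 h array (lowest change 0.67).

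**Figure D3:**
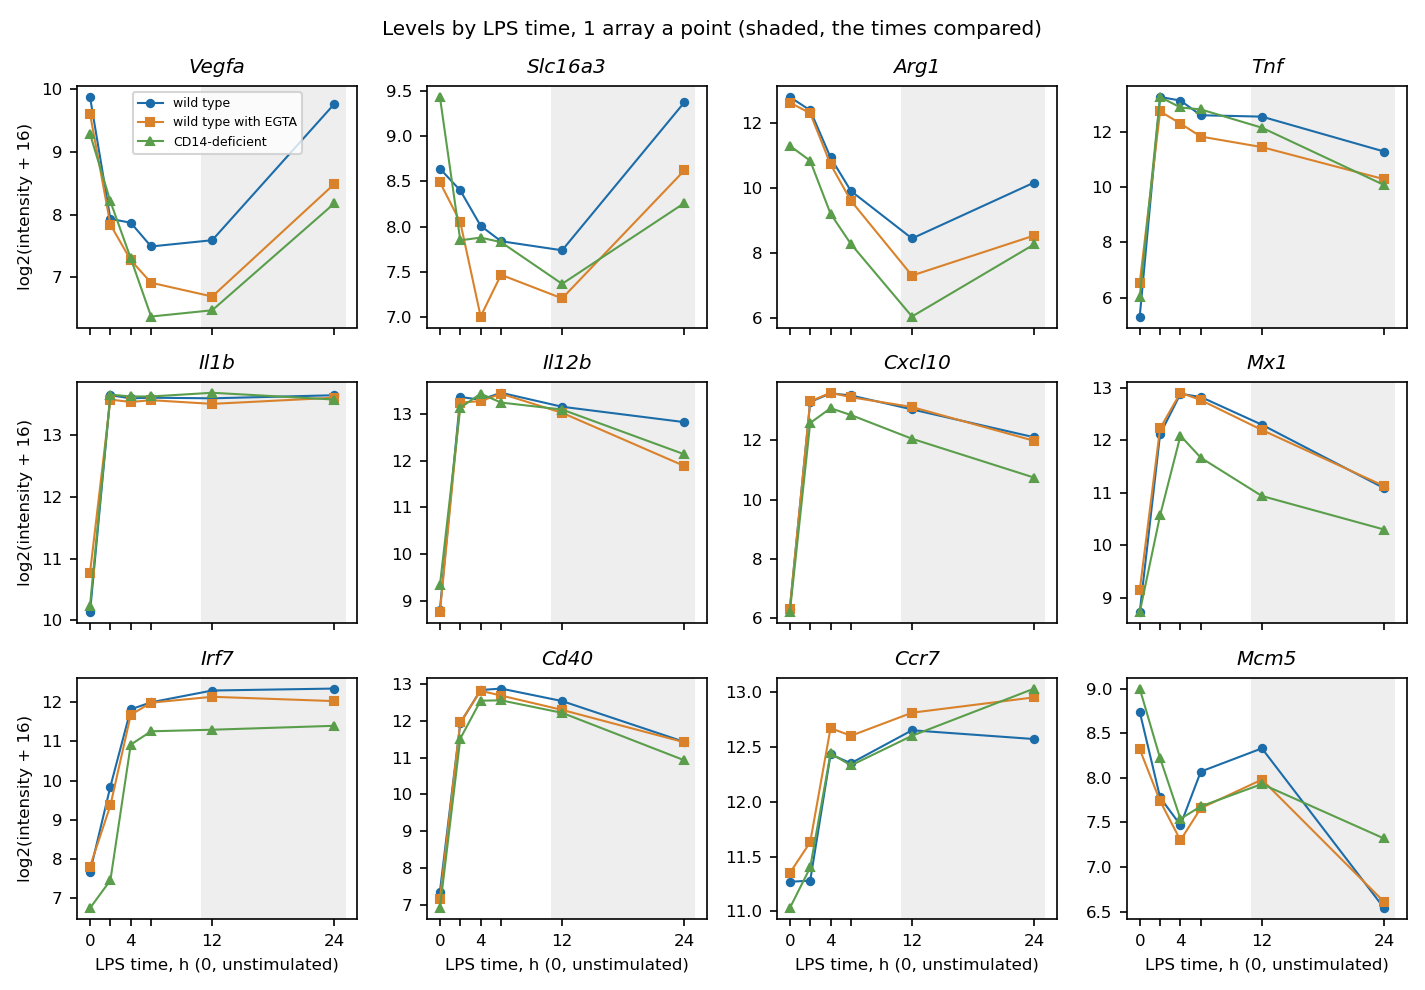
Levels of 12 genes, log2(normalised intensity + 16), by LPS time in h, 1 array a point and 1 line for each condition, with the 2 times compared shaded; 0 marks unstimulated cells, harvested 24 h after plating. Vegfa, Slc16a3 and Arg1 fall early and lie higher at 24 h than at 12 h, Tnf, Il12b, Cxcl10, Mx1 and Cd40 peak by 6 h and lie lower at 24 h, and Il1b, Irf7 and Ccr7 show no called change between these times.

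Mitochondrial genes rose in smaller number and by less. Of 32 tested genes of oxidative phosphorylation and the TCA cycle 9 rose and 0 fell, with a median of 0.14. Before that, 29 of the 32 had been early lower and 2 early higher. The respiratory chain subunit gene Ndufa4 was at 9.33, 9.22 and 9.17 and then at 9.73, 9.71 and 9.64, with no overlap, and rose by 0.46 ± 0.06 (adjusted p = 7.8e-04). The ATP synthase subunit Atp5c1 rose by 0.42, the succinate dehydrogenase subunits Sdhd and Sdhb by 0.51 and 0.32, and the malate dehydrogenases Mdh1 and Mdh2 by 0.40 and 0.27. Ndufb5, Ndufb9 and Cox7a2 rose by 0.24, 0.28 and 0.25. These small changes depended on the scaling, with 3 rises and 1 fall after median centring and 1 rise without further scaling, and 3 rises without the wild type condition, 4 without the EGTA condition, 5 without the wild type 12 h or the CD14-deficient 24 h array and 6 without the EGTA 24 h array or the CD14-deficient condition.

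The largest rise of all was that of Hepacam2, a membrane protein of the immunoglobulin family. It was at 7.61, 7.80 and 7.73 at 12 h and at 9.88, 10.09 and 10.57 at 24 h. The times lay far apart, and the change of 2.47 ± 0.22 (5.53-fold, adjusted p = 4.8e-05) followed an early fall of 3.16. The arginase Arg1, which removes the arginine that T cells need, was at 8.44, 7.30 and 6.04 and then at 10.16, 8.53 and 8.26. It rose in every condition, by 1.72 ± 0.25 (adjusted p = 8.3e-04), though the lowest level at 24 h lay under the highest at 12 h. In unstimulated cells Arg1 was at 12.79, 12.62 and 11.29, so at 24 h it was still well below that level in every condition. The sialyltransferase St6gal1 went from 5.94, 6.59 and 6.44 to 7.41, 7.86 and 8.45, a rise of 1.58 ± 0.18 (adjusted p = 2.3e-04). The times did not overlap.

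Among regulators of transcription, Crem, which acts in the cyclic AMP response, rose by 1.23 ± 0.13 (adjusted p = 1.2e-04), the AP-1 subunit Fos by 1.17 ± 0.13 (adjusted p = 2.1e-04) and Sox4 by 1.15 ± 0.16 (adjusted p = 6.4e-04). Fos was at 7.40, 7.24 and 7.16 and then at 8.42, 8.43 and 8.46, nearly the same in all conditions at each time. Of 21 tested immediate early and AP-1 genes, Fos and Egr1 (0.66) rose and Klf2 (-0.54) and Batf (-0.59) fell, with a median of 0.05. The share called in this list was near the 17.9% of all tested genes that were called. The beta-oxidation enzyme Hadh (1.14) and the purine enzyme Adssl1 (1.15) completed the 15 largest rises together with Ly6i, a surface protein of the Ly6 family. Ly6i was at 10.06, 10.38 and 9.95 and then at 11.16, 11.51 and 11.25, with no overlap, and rose by 1.18 ± 0.17 (adjusted p = 8.4e-04). The glucocorticoid-induced gene Tsc22d3 (1.13), just outside these 15, rose as well. Egr1 lost its call under 11 of 20 alternative settings, Klf2 under 11, and Arg1 without the condition block.

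**Figure D4:**
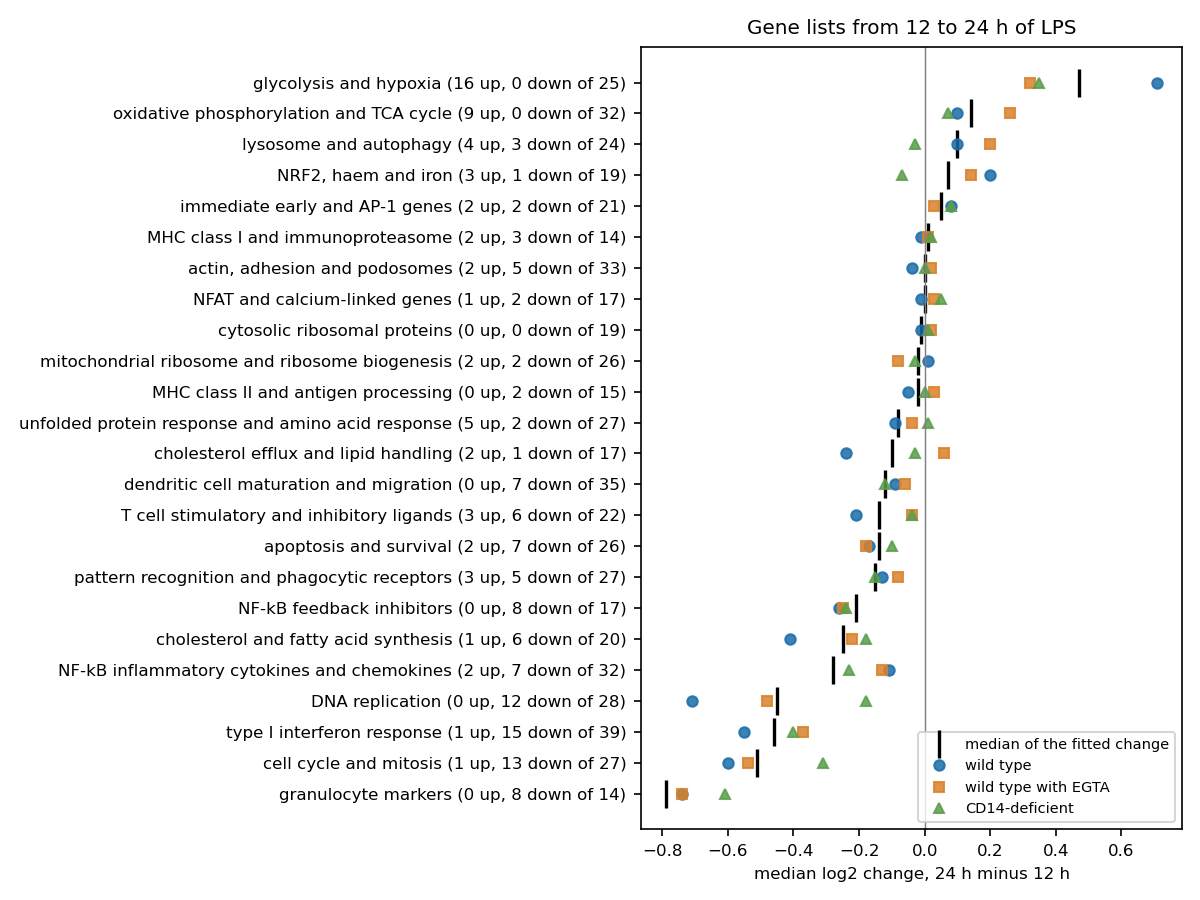
Median log2 change from 12 to 24 h of each gene list and of the granulocyte markers, with the fitted change as a bar and each condition as a symbol; the counts in brackets are the genes called higher and lower. The glycolysis and hypoxia list lies highest (0.47), and the interferon (-0.46), DNA replication (-0.45) and mitosis (-0.51) lists and the granulocyte markers (-0.79) lie lowest.

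The inflammatory cytokines did not decline as 1 group. Of 32 tested cytokine, chemokine and enzyme genes of the NF-kB list 7 fell and 2 rose, with a median of -0.28, while 28 of the 32 had been early higher. Tnf, the cytokine of acute inflammation, was at 12.54, 11.44 and 12.14 at 12 h and at 11.28, 10.28 and 10.07 at 24 h. The 24 h levels all lay below the 12 h levels, and Tnf fell by 1.50 ± 0.20 (2.82-fold lower, adjusted p = 5.8e-04) after an early rise of 6.62. Il12b, which encodes the shared p40 chain of IL-12 and IL-23, was at 13.16, 13.03 and 13.10 and then at 12.83, 11.89 and 12.14. It fell by 0.81 ± 0.14 (adjusted p = 0.00270), and the wild type array fell least. Endothelin 1 (Edn1, -1.14), the soluble pattern receptor Ptx3 (-0.72), Il18 (-0.84), the IL-1 antagonist Il1rn (-0.25) and the anti-inflammatory Il10 (-1.07) fell as well, and Saa3 (0.42) and Cxcl16 (0.26) rose.

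Il1b, Il6 and Ptgs2 were still at high levels at 24 h, while Ifnb1 was back near its unstimulated level. Il1b was at 13.60, 13.51 and 13.69 and then at 13.65, 13.61 and 13.58, a change of 0.01 with a 95% interval of -0.08 to 0.11 (adjusted p = 0.866), near the top of the scale. Il6 was at 13.37, 13.21 and 13.04 and then at 13.19, 13.07 and 12.10. It was lower on every array at 24 h within its pair, but the change of -0.42 (95% interval -0.78 to -0.06) did not pass (adjusted p = 0.0974). Ifnb1, interferon beta, was at 5.45, 5.99 and 5.56 in unstimulated cells and had reached 10.35, 9.92 and 8.16 by 2 h. Its 12 h levels were 6.19, 6.03 and 5.42, and its 24 h levels 5.42, 5.72 and 5.39 (change -0.37, interval -1.09 to 0.35). It was above the array median on 0 arrays at 12 or 24 h. The nitric oxide synthase Nos2 was at 8.96, 6.83 and 5.95 and then at 9.07, 5.50 and 5.82 (change -0.45, interval -1.44 to 0.54), so it was high at 24 h in wild type cells alone. Ifnb1, Nos2, Il12a (0.18, interval -0.19 to 0.54) and the cyclooxygenase Ptgs2 (-0.55, interval -0.96 to -0.15) did not pass. Ptgs2 was at 13.20 at both times in wild type cells and lower at 24 h in the other conditions. The Il10 call was lost under 9 of the 19 alternative settings that tested it, among them those without the wild type 12 h, wild type 24 h, EGTA 12 h or CD14-deficient 24 h array. The number of list members that fell was 3 without the wild type condition, 4 without the EGTA 12 h array and 3 without the condition block.

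In the list of NF-kB feedback inhibitors, the genes that changed fell. The list is broader than its name, with the NF-kB subunit Nfkb2, MAP kinase phosphatases such as Dusp2, and Socs3. Of 17 tested genes 8 fell and 0 rose, with a median of -0.21. The phosphatase Dusp2 was at 7.56, 8.24 and 7.74 and then at 6.83, 7.30 and 6.68, and fell by 0.91 ± 0.11 (adjusted p = 3.4e-04), with no overlap between the times. The atypical inhibitor Nfkbiz (-0.76), Nfkb2 (-0.61), Bcl3 (-0.50), Tnfaip2 (-0.50), Nfkbie (-0.35), the ubiquitin-editing enzyme Tnfaip3 (-0.50) and the cytokine signalling inhibitor Socs3 (-0.31) fell too. Nfkbia, the inhibitor that NF-kB induces first, was at 13.20, 13.10 and 13.27 and then at 13.22, 13.15 and 13.17, a change of -0.01 (interval -0.14 to 0.12). The other 3 probe sets of Nfkbia, all above the array median on all 6 arrays, changed by 0.06, -0.20 and -0.32. Socs1 (0.29) and the mRNA decay factor Zfp36 (0.29) did not pass. The number that fell was 3 without the wild type condition and also without the wild type 12 h or the EGTA 12 h array, 2 without the EGTA condition, 4 without the CD14-deficient 24 h array, 5 without the EGTA 24 h array or the CD14-deficient condition, and 1 without the condition block. The Tnfaip3 and Socs3 calls were lost under 11 and 10 of 20 settings.

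Part of the interferon response fell between the times. Of 39 tested genes 15 fell and 1 rose (Bst2, 0.33), with a median of -0.46, or -0.55, -0.37 and -0.40 by condition. All 39 had been early higher, with a median early change of 3.90. The T cell chemokine Cxcl10 was at 13.04, 13.12 and 12.05 and then at 12.10, 11.98 and 10.74. Every condition was lower at 24 h, and the times overlapped because CD14-deficient cells lay lower at both. The fall was 1.13 ± 0.13 (2.18-fold lower, adjusted p = 2.3e-04). The antiviral GTPase gene Mx1 was at 12.30, 12.20 and 10.94 and then at 11.09, 11.13 and 10.30, and fell by 0.97 ± 0.14 (adjusted p = 7.5e-04). The GTPase Iigp1 (-1.10), the RNA sensor Ifih1 (-0.64), the related chemokines Cxcl9 (-0.95) and Cxcl11 (-0.74), Cmpk2 (-0.93), Oas2 (-0.67), Ifi204 (-0.64), Gbp3 (-0.50), the RNA-activated kinase Eif2ak2 (-0.54), Parp14 (-0.67), Tor3a (-0.68), Daxx (-0.61) and Ifi35 (-0.46) fell too.

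Irf7, the factor that amplifies interferon production, was at 12.30, 12.14 and 11.30 and then at 12.35, 12.03 and 11.40, a change of 0.02 (interval -0.49 to 0.53). Ifit1 (-0.76, adjusted p = 0.146) and Ifi47 (-0.81, adjusted p = 0.0667) had larger changes than several called genes and did not pass. In 30 of the 39 genes the 24 h level was lower in all 3 conditions. The number of falls was 3 without the wild type condition, 5 without the EGTA condition, 8 without the wild type 12 h or the EGTA 12 h array, 9 without the wild type 24 h array and 0 without the condition block.

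Most maturation genes did not pass the test. Of 35 tested genes of maturation and migration 7 fell and 0 rose, with a median of -0.12, while 29 had been early higher. Ccr7, the receptor that leads mature dendritic cells to lymph nodes, was at 12.65, 12.81 and 12.60 and then at 12.57, 12.95 and 13.03. It was higher at 24 h in 2 of 3 conditions, and the change of 0.16 (interval -0.01 to 0.34) did not pass (adjusted p = 0.191). The actin-bundling protein gene Fscn1 (-0.14, interval -0.41 to 0.12), the costimulatory genes Cd80 (0.28, interval 0.08 to 0.48, adjusted p = 0.0511) and Cd86 (0.05, interval -0.15 to 0.24) and the maturation marker Cd83 (0.22, interval 0.01 to 0.44) did not pass either. Nor did the chemokines Ccl17 and Ccl22 (both -0.06, with intervals of -0.19 to 0.07 and -0.19 to 0.06). Fscn1 (13.93, 13.82 and 13.85 at 12 h), Ccl17 (13.50, 13.50 and 13.62) and Ccl22 (13.44, 13.42 and 13.58) were, like Il1b, near the top of the scale, so their narrow intervals do not show that their RNA was stable.

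Cd40, through which T helper cells activate dendritic cells, had the largest fall in the maturation list. It was at 12.54, 12.30 and 12.22 at 12 h and at 11.43, 11.42 and 10.93 at 24 h. The times did not overlap, and Cd40 fell in every condition, by 1.09 ± 0.07 (2.13-fold lower, adjusted p = 1.6e-05), the smallest adjusted p among the genes named. Icosl (-0.58), Icam1 (-0.32), Marcksl1 (-0.49), the NF-kB subunit Relb (-0.38), Birc3 (-0.30) and Lad1 (-0.64) fell as well. Among 22 genes of ligands, receptors and enzymes that stimulate or restrain T cells 6 fell and 3 rose. Tnfsf9 (-0.78), Lgals9 (-0.38) and the receptor Tnfrsf4 (-0.42) were lower besides Cd40, Icosl and Il10. Vsir (0.76), the receptor Tnfrsf9 (0.68) and the enzyme Arg1 were higher, Arg1 while still below its unstimulated level. The falls among these 22 genes were 2 without the wild type condition, the EGTA condition or the EGTA 12 h array, and 3 without either wild type array. The checkpoint ligand Cd274 did not pass (-0.23, interval -0.41 to -0.04). The number of maturation genes that fell was 2 without the wild type condition, the EGTA condition or the wild type 12 h array, 3 without either EGTA array, 4 without the CD14-deficient 12 h array and 1 without the condition block.

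Of the antigen presentation genes, 5 of 14 in the class I pathway and 2 of 15 in the class II pathway passed the test. The share over all tested genes was 17.9%. Of 15 tested MHC class II genes Ciita, the class II transactivator, and its partner Rfx5 (-0.43) fell and 0 rose, with a median of -0.02 whose sign varied between settings. Ciita was at 8.07, 8.55 and 8.46 and then at 7.54, 7.83 and 7.76, and fell by 0.65 ± 0.11 (adjusted p = 0.00270) with no overlap. H2-Ab1, a class II chain, was at 12.42, 12.53 and 12.84 and then at 12.28, 12.82 and 12.64, a change of -0.02 (interval -0.32 to 0.28). In the class I pathway, with 14 tested genes and a median of 0.01, the immunoproteasome subunit Psmb10 (-0.61 ± 0.08, adjusted p = 5.6e-04), the peptide transporter Tap2 (-0.33) and Psme1 (-0.19) fell, and the chaperones Calr (0.31) and Pdia3 (0.24) rose. The class I counts were 1 rise and 4 falls after median centring and 0 rises and 1 fall without further scaling, and 0 and 1 without the wild type condition.

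Among 27 tested receptors that sense or take up microbes and their adaptors, 5 fell and 3 rose. The rises depended on the scaling, with 1 rise and 6 falls after median centring and 0 rises and 7 falls without further scaling. The mannose receptor Mrc1 was at 9.70, 9.49 and 9.47 and then at 7.52, 8.13 and 8.00. The times lay well apart, and Mrc1 fell by 1.67 ± 0.13 (3.18-fold lower, adjusted p = 2.7e-05). Tlr2 (-0.59), Tlr7 (-0.41), the adaptor Myd88 (-0.39) and the apoptotic cell receptor Axl (-0.49) fell, and the lectin Clec4d (0.30) and the Fc receptors Fcgr2b (0.33) and Fcgr3 (0.41) rose. Without the wild type condition 1 gene of this list fell. The LPS receptor Tlr4 was at 10.14, 9.97 and 9.97 and then at 10.50, 10.19 and 10.35, a change of 0.32 (interval 0.02 to 0.62) that did not pass (adjusted p = 0.125). Cd14 was at 12.79, 12.49 and 5.84 and then at 13.28, 12.97 and 5.39, so its level followed the genotype labels at both times.

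The matrix genes Mmp13 and Fn1 were among the largest falls, while the actin, adhesion and podosome list as a whole had a median change of 0.00. The collagenase Mmp13 was at 12.72, 12.28 and 12.65 and then at 11.00, 11.21 and 10.16, with no overlap, and fell by 1.76 ± 0.19 (3.39-fold lower, adjusted p = 1.4e-04). Fibronectin (Fn1) was at 10.28, 9.70 and 10.44 and then at 8.56, 7.68 and 9.15, and fell by 1.68 ± 0.22 (adjusted p = 5.8e-04). A dim second probe set of Fn1, below the array median on all 6 arrays, gave 0.33. The adhesion receptor Cd44 fell by 0.63. Over 33 tested genes of actin, adhesion and podosomes 5 fell and 2 rose, a share near the 17.9% of all tested genes that were called. The falls in this list were 2 without the wild type condition, the EGTA condition or the wild type 12 h array, and 3 without the EGTA 12 h array.

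Of the remaining large falls, the oxysterol-making enzyme Ch25h, itself an interferon-induced gene, was at 11.80, 11.11 and 12.05 and then at 9.82, 9.22 and 10.74. It fell by 1.73 ± 0.17 (3.31-fold lower, adjusted p = 8.2e-05) with no overlap, after an early rise of 5.05. The heat shock protein gene Hspa1b was at 10.46, 9.70 and 9.83 and then at 9.26, 7.48 and 8.03, and fell by 1.74 ± 0.26 (adjusted p = 9.4e-04). Hspa1b shares most of its sequence with Hspa1a, so the probe sets may not tell them apart. Bex1, Sh3bp5, Zfp503, Timeless and Crxos fell by 1.55, 1.48, 1.35, 1.33 and 1.29, and the times overlapped for Bex1 and Crxos. Timeless lost its call without the wild type condition or without the EGTA condition, and Bex1 and Crxos without the condition block.

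Genes of mitosis fell further. Of 27 tested mitosis genes 13 fell and 1 rose (the centromere histone Cenpa, 0.62), with a median of -0.51, and 24 of them had already been early lower. The proliferation marker Mki67 was at 9.38, 9.16 and 9.25 and then at 8.78, 8.03 and 8.35, with no overlap, and fell by 0.88 ± 0.23 (adjusted p = 0.0189). The spindle checkpoint gene Mad2l1 was at 9.06, 8.73 and 8.74 and then at 8.09, 7.73 and 8.04, and fell by 0.89 ± 0.10 (adjusted p = 2.2e-04). Ube2c (-0.89), Ccnb2 (-0.88), Bub1 (-0.82), Tpx2 (-0.78), Prc1 (-0.72), Kif11 (-0.62), Top2a (-0.61), Cdk1 (-0.53), Nusap1 (-0.52), Stmn1 (-0.50) and Ccna2 (-0.45) fell. At 24 h Ccnb2 was dim, at 5.85, 5.72 and 6.42.

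In the DNA replication list 12 of 28 tested genes fell and 0 rose, with a median of -0.45. The replicative helicase subunit Mcm5 was at 8.33, 7.98 and 7.93 and then at 6.54, 6.61 and 7.32, and fell by 1.26 ± 0.19 (adjusted p = 0.00103). The times did not overlap, and the CD14-deficient cells fell least, as the list medians of -0.71, -0.48 and -0.18 by condition also ran, although no difference between CD14-deficient and wild type cells passed the test. Mcm3 (-0.96), Mcm6 (-0.79), Mcm7 (-0.77), Gins1 (-1.27), Uhrf1 (-1.08), Rrm2 (-0.91), Rrm1 (-0.29), the cyclin Ccne2 (-0.92), Cdc45 (-0.74), Rfc5 (-0.45) and Pcna (-0.39) fell too. In bulk RNA, fewer cells of a type and less RNA per cell cannot be told apart. Without the wild type condition 5 mitosis and 2 replication genes fell, without the EGTA condition 4 and 4, without the wild type 12 h array 5 and 7, without the EGTA 12 h array 5 and 7, and without the condition block 2 and 7. Mitosis falls were 8 without the EGTA 24 h array and 7 without the CD14-deficient 24 h array, and replication falls were 7 without the wild type 24 h array. The Mki67 call was lost without the wild type 12 h, EGTA 12 h, EGTA 24 h or CD14-deficient 24 h array.

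Markers of granulocytes and their precursors, which GM-CSF cultures of marrow can hold, fell over the same interval, with 8 falls and 0 rises among 14 tested genes and a median of -0.79. The granule gene Ngp was at 10.22, 10.16 and 10.88 and then at 8.74, 8.42 and 9.75, with no overlap, and fell by 1.45 ± 0.19 (adjusted p = 5.5e-04). S100a9, a subunit of calprotectin, fell by 1.42 ± 0.27 (adjusted p = 0.00384) and its partner S100a8 by 1.11, while Ltf (-0.92), Camp (-0.98), Prtn3 (-0.89), Ctsg (-0.96) and Chil3 (-0.39) fell and Mpo (-0.68), Elane (-0.31), Csf3r (-0.27), Lcn2 (0.33), Mmp8 (0.15) and Mmp9 (0.30) did not pass. The summed normalised intensity of these 14 genes was 26100, 26100 and 35700 at 12 h, 19700, 18900 and 29600 at 24 h, and between 48200 and 49900 without LPS. Of the 14, 7 lay above the median on all 6 arrays, and Mpo and Ctsg on none. Their part in the falls of cell division and of other lists was not tested. Granulocyte falls were 3 without the wild type condition, 4 without the EGTA condition, 5 without the wild type 12 h array and 2 without the condition block, and S100a9 lost its call without the wild type or the EGTA condition.

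**Figure D5:**
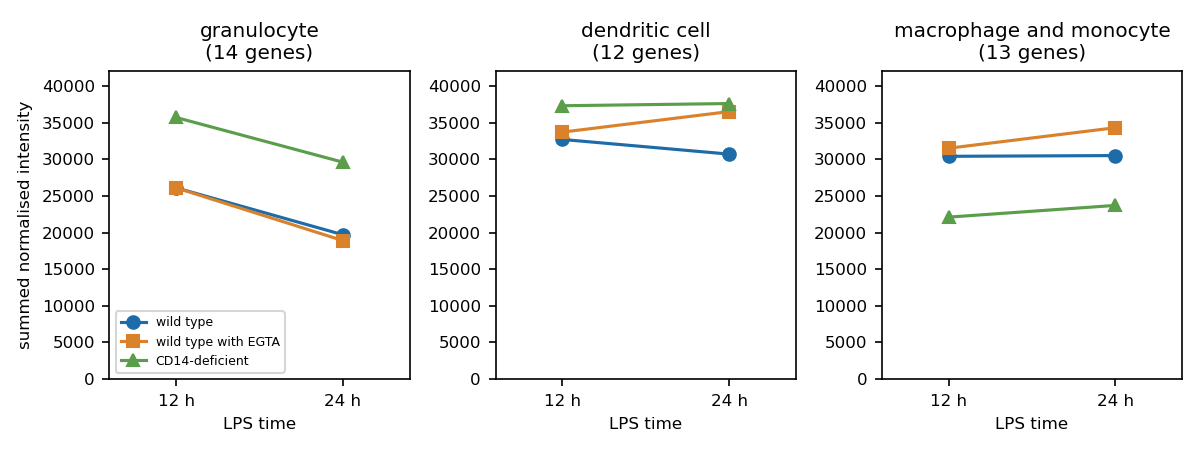
Summed normalised intensity (linear) of the marker genes of granulocytes, dendritic cells and macrophages at 12 and 24 h of LPS, 1 array a symbol and 1 line for each condition. The granulocyte sum is lower at 24 h in all 3 conditions (18900 to 29600 against 26100 to 35700), while the dendritic cell sums span 30700 to 37600 at 24 h and 32700 to 37300 at 12 h.

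Dendritic cell markers were high at both times, with 8 of 12 above the median on all 6 arrays and Cd209a and Xcr1 on none. Of 10 tested, Kmo (1.00 ± 0.21, adjusted p = 0.00722) and Batf3 (0.59 ± 0.13, adjusted p = 0.00873), both markers of conventional dendritic cells, rose and Dpp4 (-0.47) fell. Kmo was at 6.67, 6.90 and 7.09 and then at 7.34, 7.74 and 8.58, so the times did not overlap. Macrophage markers summed to between 22100 and 31500 at 12 h and between 23700 and 34300 at 24 h. Of 11 tested, Adgre1 (0.40) and Cd68 (0.34) rose and Mrc1 fell. These marker counts are small, and 17.9% of all tested genes were called. Of the mast cell markers Kit (0.51) and Hdc (0.67) rose of 5 tested, with Mcpt4, Tpsb2, Tpsab1, Cma1, Ms4a2 and Fcer1a below the median on all 6 arrays. All 9 T and NK cell markers on the array lay below it on all 6 arrays, as did 4 of 5 melanoma markers.

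Among metabolic genes, cholesterol and fatty acid synthesis fell in 6 of 20 tested genes and rose in Scd2 alone (0.69), with a median of -0.25. The desaturase Scd1 was at 9.0, 9.10 and 8.77 and then at 7.75, 8.01 and 8.17, and fell by 0.98 ± 0.11 (adjusted p = 2.2e-04), with no overlap. Of the sterol pathway Idi1 (-1.15), Fdps (-0.91), Hmgcs1 (-0.70) and Cyp51 (-0.65) fell, and so did Fasn (-0.67). The number of falls was 1 without the wild type condition or without the condition block, 2 without the CD14-deficient condition and without any of the wild type 12 h, wild type 24 h, EGTA 12 h and CD14-deficient 24 h arrays, and 9 without the EGTA 24 h array. The cholesterol exporter Abca1 rose by 0.67 ± 0.15 (adjusted p = 0.0103) and Npc2 by 0.21, and 14 of 17 tested genes of efflux and lipid handling did not pass. The share called in that list was near the 17.9% of all tested genes. The iron and manganese transporter Slc11a1 was at 10.29, 10.51 and 10.53 and then at 11.37, 11.22 and 11.36, a rise of 0.87 ± 0.12 (adjusted p = 6.4e-04). The related transporter Slc11a2 fell by 0.47. Both belong, with the metallothioneins below, to a list of NRF2 antioxidant, haem and iron genes. Of its 19 tested genes 3 rose and 1 fell, with a median of 0.07, and Hmox1 did not pass. The share called in it was also near that of all tested genes.

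The metallothioneins Mt1 (1.04 ± 0.29, adjusted p = 0.0266) and Mt2 (0.87 ± 0.25, adjusted p = 0.0331) rose, with the largest differences in wild type cells, though no difference between conditions was called for them. Mt2 was at 11.66, 10.46 and 11.59 and then at 13.14, 10.61 and 12.56, so that the EGTA arrays were both low and close to each other. Their calls were lost under 7 and 11 of 20 alternative settings. Of 27 genes of the unfolded protein and amino acid responses, Atf3 (0.66), Ddit4 (1.02), Sesn2 (0.43), Xbp1 (0.27) and Edem1 (0.26) rose and Slc7a5 (-0.97) and Phgdh (-0.54) fell. This list had 2 rises and 3 falls after median centring and also without further scaling, 2 and 0 with all 18 arrays or without the wild type condition, 1 and 0 without the EGTA condition, and 0 and 0 without the condition block. The calls of Slc7a5, Phgdh and Edem1 were lost under 12, 7 and 6 of 20 settings. Of 26 apoptosis and survival genes 7 fell and 2 rose. The death receptor Fas was at 10.29, 9.80 and 9.77 and then at 9.02, 8.85 and 9.05, and fell by 0.98 ± 0.10 (adjusted p = 1.4e-04). The death ligand Tnfsf10 (-1.06) and the caspase inhibitor Cflar (-0.72) fell with it, while Bcl2l11 (0.59) and Ripk3 (0.64), which promote cell death, rose. Apoptosis falls were 2 without the wild type condition and 4 without the EGTA condition, the wild type 12 h array or the EGTA 24 h array. Of 19 cytosolic ribosomal protein genes 0 passed in limma (smallest adjusted p = 0.0548, for Rpl22), with changes between -0.20 and 0.15. Of 17 NFAT and calcium-linked genes Rcan1 (0.51) rose and Tnfsf9 and Atp2a2 (-0.31) fell. Of 24 lysosome genes 4 rose and 3 fell, and of 26 mitochondrial ribosome and ribosome biogenesis genes 2 rose and 2 fell. For the NFAT and mitochondrial ribosome lists this is near the 17.9% of all tested genes that were called. The lysosome counts were 1 rise and 4 falls after median centring, 0 and 3 without further scaling, 1 and 3 on the 6 arrays alone, and 0 and 0 without the wild type condition. Those of the mitochondrial ribosome list were 0 and 4 after median centring, 0 and 1 without further scaling, and 0 and 0 with all 18 arrays or without any 1 of the conditions.

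The change from 12 to 24 h was compared between conditions with an interaction term, where the lone arrays were assumed to vary like the 2, 4 and 6 h arrays. The change with EGTA differed from that in wild type cells for 2 of 7392 genes (0.0271%), and that in CD14-deficient cells for 0 (0%) by limma, with 430 and 441 genes at an unadjusted p under 0.05. With 4 residual degrees of freedom a p that misses the threshold does not show that the conditions changed alike. The 2 genes were Cav1, a structural protein of caveolae, and the DNA methyltransferase Dnmt3a. Cav1 was at 11.81, 11.02 and 12.88 and then at 10.89, 8.43 and 12.27. It fell most with EGTA, by 2.59 against 0.91 in wild type and 0.60 in CD14-deficient cells, a difference of -1.68 ± 0.16 between EGTA and wild type (adjusted p = 0.0143). Dnmt3a was at 8.53, 8.21 and 8.14 and then at 7.76, 9.78 and 7.96, a difference of 2.33 ± 0.23 (adjusted p = 0.0143), and the EGTA array at 24 h was the only one higher than its pair. With the mean of its probe sets the Dnmt3a difference was 0.91 (adjusted p = 0.715). Both calls were lost with median centring (adjusted p = 0.0658 each) and without the intensity trend (adjusted p = 0.166 and 0.120).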

How the data were processed

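RNA (3 µg for each of 18 arrays) was labelled and hybridised to Affymetrix arrays of 22690 probe sets. The deposited values are linear intensity values, which the authors computed with MAS5, per the submitters' processing notes. The MAS5 version, its scaling target and a genome build are not stated in the sources used here. Array trimmed means (2% off each end) ran from 330.5 to 472.3 over the arrays and median intensities from 77.9 to 127, so the arrays were quantile-normalised, and log2(value + 16) was taken, which understates changes of dim genes. The number of arrays limits the precision. The unstimulated EGTA array correlated least with the others (median r = 0.93) and enters only the early response.

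Of the probe sets 20393 had 1 gene, 691 several and 1606 none, by GEO's annotation of the array. Each gene took the values of its brightest probe set by mean over all arrays, giving 12394 genes, of which 7392 lay above the median of their array on at least 2 of the 15 LPS arrays and were tested. Tests used limma 3.58.1 in R 4.3.3 (lmFit, then eBayes with an intensity trend), two-sided, with Benjamini-Hochberg adjustment over all genes tested. Time was a factor and the condition a block (8 residual degrees of freedom). The early response and the differences between conditions had 4. Deviations from the time means correlated within conditions between 12 and 24 h (r = 0.58, 0.67 and 0.69 across genes). Between conditions r ran from -0.46 to -0.15. The deviations cancel over the 3 conditions at each time, so positive values within conditions bring negative ones between them. The condition was kept as a block because the conditions served as the pairs.

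Genes were named by rule: the 15 largest rises and falls with 1 sign in all conditions and above the array median on all arrays of a time, up to 4 genes of smallest p in each of 23 gene lists, a set chosen from knowledge of the pathway, and genes called in a condition difference. Other list members named were picked after their values were seen. The members and lists were chosen with earlier results of these data known. The steps were tested on simulated data. The alternatives, changed 1 at a time, were other scalings, pseudocounts and filters, all 18 or only the 6 compared arrays, no block, the mean of probe sets, no trend, and each condition or compared array left out.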

Additional observations from a re-analysis of the deposited data

Results flagged for a closer look

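The change from 12 to 24 h differed between EGTA and wild type cells for 2 genes, by the interaction term of limma. For Cav1 the difference was -1.68 ± 0.16 (adjusted p = 0.0143), with adjusted p-values from 0.0124 to 0.166 over its alternatives. For Dnmt3a it was 2.33 ± 0.23 (adjusted p = 0.0143), with adjusted p-values from 0.0124 to 0.715. Both genes were read on 1 array for each condition and time, and for Dnmt3a the 24 h EGTA array alone stood above its 12 h pair.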

How the results depend on the processing

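Of 108 named genes that were called, 32 kept their call under every alternative that tested them (all 20, but 19 for Sox4) and 41 under every one that left no array out, and 0 of 139 named genes changed direction past the threshold. Genes higher at 24 h numbered 435 with median centring, 165 without further scaling and 189 without the replicate block, where 115 were lower. Leaving out a condition or an array gave 128 to 588 higher and 119 to 545 lower genes, and the lowest counts were those without the wild type condition. The EGTA difference was called for 0 genes with median centring, 4 without further scaling, 1 with the mean of probe sets and 0 without the intensity trend. In the early response 1603 genes were lower with median centring, and 1021 were higher and 3852 lower without further scaling, so the shares of late changes that ran against it also depend on the scaling. No replicate array exists at any condition and time, and the cause of these shifts was not tested.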

Other observations

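Some genes outside the lists, picked after their values were seen, also fell after an early rise. They were the matrix proteoglycan Vcan (-1.16 ± 0.17, adjusted p = 0.00104), the adhesion molecule Vcam1 (-1.22 ± 0.17, adjusted p = 6.6e-04) and the plasminogen activator Plat (-1.24 ± 0.14, adjusted p = 2.3e-04), with early changes of 2.93, 3.05 and 3.34. Vcam1 was at 8.60, 9.09 and 7.73 at 12 h and at 7.45, 7.27 and 7.06 at 24 h. Of the heat shock genes looked at, Hspa1a (-1.20) and Hspa8 (-0.20) fell besides Hspa1b, while Hsph1 (-0.25), Dnajb1 (-0.15) and Hsp90aa1 (-0.05) did not pass. The glucocorticoid receptor Nr3c1 fell (-0.57 ± 0.10, adjusted p = 0.00216) while Tsc22d3, which it is known to induce, rose (1.13 ± 0.13, adjusted p = 2.6e-04).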
